A study of Equus caballus with 15 samples.

Results

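Oxidative phosphorylation was examined through the nuclear genes for subunits of complexes I to V in equine macrophages given IL-1ß with or without an orthobiologic therapy (OT). Members were rows whose symbol starts with NDUFA, NDUFB, NDUFC, NDUFS, NDUFV, UQCR, ATP5 or COX4 to COX8, together with CYC1 and SDHA to SDHD. Assembly factors named NDUFAF, NDUFA4L2, ATP5IF1 and symbols ending in L or RT were left out. This gave 74 of the 16932 genes listed, namely 34 of complex I, 4 of complex II, 8 of complex III, 13 of complex IV and 15 of complex V.

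The macrophages were grown from blood mononuclear cells of 2 horses for 5 days with human M-CSF at 30 ng/ml, and the libraries were made from poly(A) RNA. Which horse's macrophages went into which library is not given in the sources used here, so a difference between those horses cannot be told apart from the spread within or between conditions. Untreated macrophages received neither IL-1ß nor an OT. The IL-1ß macrophages received IL-1ß at 10 ng/ml, and the other conditions received the same IL-1ß together with medium conditioned by mesenchymal stromal cells (MSC-CM), lysate of platelet rich plasma (PRP lysate) or autologous conditioned serum (ACS), each as 25% of the medium for 24 h. Each condition had 3 libraries, 15 in all. The OTs came from 3 donor horses, which were not the macrophage donors, so an OT's libraries differ by product donor. The study calls the untreated and the IL-1ß libraries technical replicates. The 5 conditions share 1 estimate of the spread in limma, so the tests set it partly from technical replicates, also between OTs.

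The respiratory chain passes electrons from NADH (complex I) or succinate (complex II) through coenzyme Q to complex III, cytochrome c and complex IV, where oxygen is reduced. Complexes I, III and IV pump protons across the inner mitochondrial membrane, and complex V, the ATP synthase, makes ATP as the protons return. Complex II is also an enzyme of the TCA cycle, and it is known in macrophages for the handling of succinate during inflammatory activation.

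Levels are CPM, a gene's share of the reads counted on genes in its library scaled to a fixed total, and depth was 28410735 to 47894072 reads on genes per library. CPM is not divided by transcript length, so it orders genes by reads and not by transcripts. In bulk RNA, fewer cells of a type and less RNA per cell cannot be told apart. The cultures carried macrophage markers, with 10 of 12 listed and a summed level of 2038 to 6414 CPM in the 15 libraries. The 6 T cell markers summed to 557 to 1493 CPM and the 5 NK markers to 200 to 807 CPM, so lymphocyte transcripts were present in every condition. The 4 of 5 listed B cell markers summed to at most 47.6 CPM, the 3 platelet markers to 3.31 to 41.1 CPM and the 5 stromal markers to 0 to 2.94 CPM.

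Of the 74 members, 70 reached a mean of at least 1 CPM over the libraries and were tested, and the other 4 are described by their reads. In complex I, the accessory subunit NDUFB1 took the fewest reads among the tested members of complex I, with 13.3 to 27.9 CPM. NDUFA2 (ENSECAG00000023131, chromosome 14, 35499395 to 35501190 of EquCab3.0) had 2 reads in a single PRP lysate library and 0 in the other 14. A count of 0 allows up to 3 reads, which is 0.0626 to 0.106 CPM at these depths by counting error alone. Whether so few NDUFA2 reads reflect its transcript or how reads were assigned to this locus was not tested.

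In complex II, SDHA, the catalytic flavoprotein, had the highest mean, 264 CPM, and SDHD, a membrane anchor, the lowest, 71.6 CPM. In complex III the core protein UQCRC1 had a mean of 460 CPM and the small subunit UQCR11 a mean of 57.1 CPM. In complex V, ATP5F1B, the catalytic beta subunit, led all members with 1222 to 1601 CPM. Its alpha partner ATP5F1A had 1040 to 1406 CPM, the gamma subunit ATP5F1C had 242 to 340 CPM, and the small subunit ATP5MJ had the lowest mean of the complex, 51.9 CPM.

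Isoform pairs of complex IV were carried almost wholly by the general form. COX4I1 had 320 to 620 CPM, while COX4I2, a form best known from lung, had 22 reads over all libraries and 0 in 11 of them. COX6A1 had 242 to 510 CPM against 9 reads, all in 1 untreated library, for COX6A2, the heart and muscle form. COX6B1 had 164 to 314 CPM against 40 reads over 9 libraries for COX6B2, the testis form. COX7A2 had 108 to 186 CPM, and COX7A1, the muscle form, was the only one of these alternative isoforms with enough reads to be tested, at 3.32 to 17.3 CPM. COX8A had 254 to 614 CPM. The 3 genes ATP5MC1, ATP5MC2 and ATP5MC3 encode the same mature ring subunit of complex V, and all were read, with 93.9 to 203, 141 to 338 and 307 to 449 CPM. NDUFAB1, the mitochondrial acyl carrier protein that is also a complex I subunit, had 13.0 to 32.3 CPM. NDUFA4 was not analysed here.

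The summed level of the 70 tested members had a wider range within each condition except ACS than the condition means had. The untreated libraries held 14513, 12030 and 13476 CPM, and the IL-1ß libraries 11053, 12811 and 16869 CPM. MSC-CM libraries held 14153, 11748 and 11181 CPM, and PRP lysate libraries 14830, 10997 and 10943 CPM. The ACS libraries lay closest together, at 11354, 11448 and 10841 CPM. The highest sum of the series was thus in IL-1ß replicate 3, while the highest of the PRP lysate and of the MSC-CM libraries was replicate 1. Means and SDs (n = 3) were 13340 ± 1247 CPM in untreated macrophages, 13578 ± 2983 under IL-1ß, 12361 ± 1578 when MSC-CM was added, 12256 ± 2229 for PRP lysate and 11214 ± 327 for ACS.

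**Figure D1:**
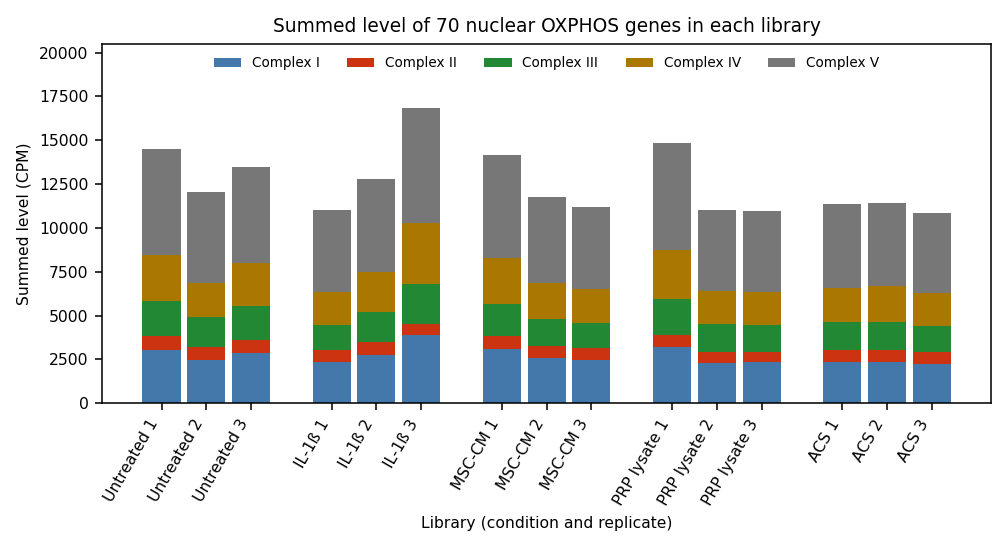
Summed level (CPM, vertical axis) of the 70 tested OXPHOS genes in each of the 15 libraries, each bar being 1 library and each color 1 complex. IL-1ß replicate 3 reached 16869 CPM where the other IL-1ß bars end at 11053 and 12811 CPM, and the ACS bars were the most even.

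Those 3 libraries also stood apart over all genes. On the first principal component, which held 55.4% of the variance, they lay at -103 (IL-1ß), -51.7 (PRP lysate) and -20.7 (MSC-CM), against -8.15 to 26.6 for the other 12. Cytosolic ribosomal protein genes moved with them, with a mean log2(CPM + 1) over 65 genes of 9.63, 9.26 and 9.15 in these libraries and 8.33 to 8.89 in the rest. The part of this shift in the comparisons was not tested, so counts that change without the 3 libraries, or with the mean of those 65 genes as a covariate (at equal ribosomal protein level), are given with the results.

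**Figure D2:**
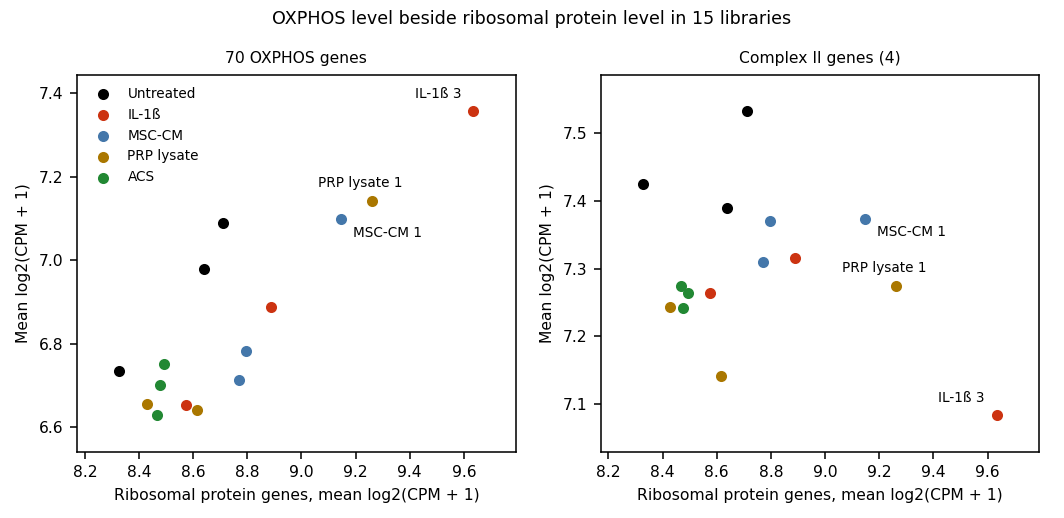
Mean log2(CPM + 1) of the 70 OXPHOS genes (left) and of the 4 complex II genes (right) against the mean log2(CPM + 1) of 65 cytosolic ribosomal protein genes, 1 point per library, colored by condition. The 3 named libraries lie highest on the horizontal axis, and IL-1ß replicate 3 is the highest on the left and the lowest on the right.

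Most members were higher in these libraries than in the others of the same condition, while complex II was lower in IL-1ß replicate 3 and differed by medians of 0.08 in PRP lysate replicate 1 and 0.09 in MSC-CM replicate 1. In IL-1ß replicate 3, 64 of 70 members were above the mean of the other IL-1ß libraries (91.4%, against 36.3% of all genes tested), with a median difference of 0.66 on the log2 scale for the members and -0.35 for all genes. By complex the median difference was 0.67 for complex I, 0.60 for III, 0.76 for IV and 0.71 for V, and -0.25 for II. The largest differences were those of NDUFS6, NDUFB11, UQCR11, ATP5F1D and NDUFA13, subunits with a 2.75-, 2.37-, 2.34-, 2.26- and 2.25-fold higher level. The 6 members below the other libraries were NDUFS1, SDHD, SDHA, UQCRC2, SDHB and ATP5PB.

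In PRP lysate replicate 1, 66 of 70 members were above the others of the condition (94.3%, against 42.9% of all genes), with a median difference of 0.53 for members and -0.13 for all genes. NDUFS1, UQCRC2, NDUFB5 and SDHB were below. In MSC-CM replicate 1, 68 members were above (97.1%, against 39.8%), with medians of 0.36 and -0.09, and SDHD and NDUFS1 were below. Altogether 63 members were higher in all 3 libraries, and NDUFS1 alone was lower in all 3.

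NDUFS1 (ENSECAG00000015914, chromosome 18, 80562001 to 80585849) encodes the largest subunit of complex I, which carries iron-sulfur clusters. It had 106 CPM in IL-1ß replicate 3, and 199 and 189 CPM in the 2 remaining ones of that condition. It had 131 CPM in PRP lysate replicate 1 against 194 and 201 CPM, and 174 CPM in MSC-CM replicate 1 against 195 and 182 CPM. Untreated libraries held 202, 231 and 190 CPM and ACS libraries 193, 189 and 191 CPM, so the 2 lowest values of NDUFS1 in the series were in libraries where 64 and 66 of the 70 members were above the rest of their condition.

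Genomic span, the distance from gene start to gene end, moved with this pattern. Of the 70 members, 62 had a span under 23143 bases, the median of all genes tested. Over all genes, those under the median differed by a median of 0.08 in IL-1ß replicate 3 and the longer ones by -0.79, and in PRP lysate replicate 1 the medians were 0.17 and -0.43. The members lower in IL-1ß replicate 3 had a median span of 23363 bases and the higher ones of 5735 bases. The short genes as a whole thus differed by less than the members did. Medians of the comparisons with the span trend removed are given in the last section, and the part of span in these libraries was not tested.

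**Figure D3:**
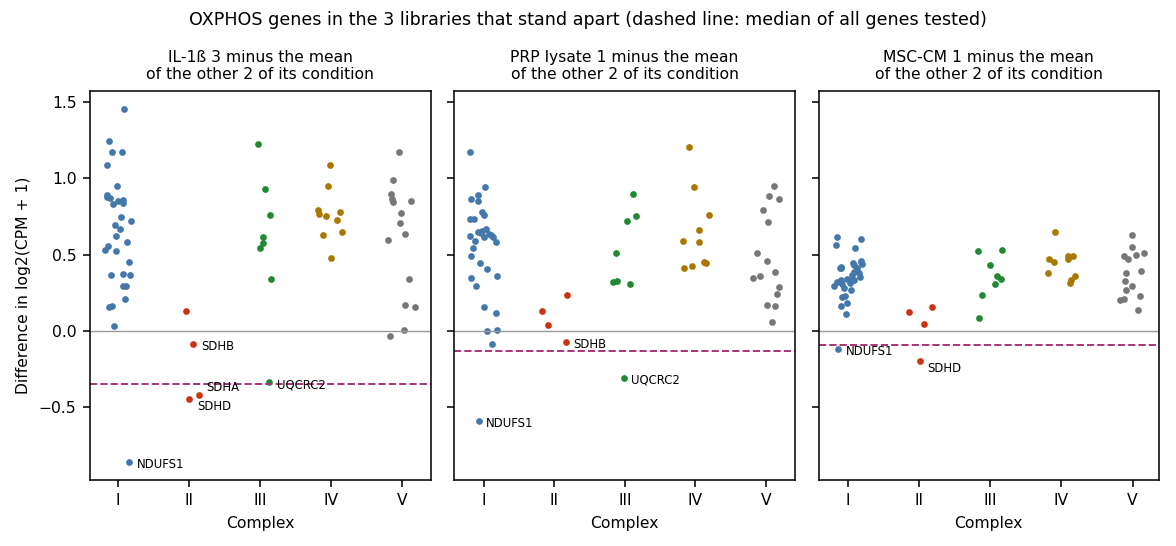
Difference in log2(CPM + 1) between each of the 3 libraries and the mean of the other libraries of its condition, for 70 OXPHOS genes by complex, 1 point per gene, with the median of all genes tested as a dashed line. Complexes I, III, IV and V lie mostly above 0 in each panel, and NDUFS1 lies below 0 in all 3.

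IL-1ß against untreated macrophages asks how the inflammatory stimulus alone altered these genes. No member passed a Benjamini-Hochberg adjusted p of 0.05 in limma (0 of 70, against 0.387% of all genes tested), and by edgeR and DESeq2 on recovered reads the count was also 0. At an unadjusted p of 0.05, 2 members passed, both lower with IL-1ß and both of complex II, against 13.0% of all genes. The median log2 fold change was 0.03 for the members and -0.07 for all genes, and both signs turned without IL-1ß replicate 3, to -0.17 and 0.06. Without untreated replicate 2 the members' median was -0.06. By complex it was 0.08 for I, -0.09 for III, -0.05 for V and -0.24 for II, whose 4 members were all negative. The 95% interval of a member reached 0.49 to each side in the median (range 0.21 to 0.88), so changes of under about that size on the log2 scale could not be resolved.

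SDHB (ENSECAG00000011758, chromosome 2, 36736396 to 36769147), the iron-sulfur subunit of complex II, had the smallest p. Untreated libraries held 247, 220 and 214 CPM, and IL-1ß libraries held 177, 193 and 174 CPM. Its log2 fold change was -0.32 (95% interval -0.55 to -0.10, limma adjusted p = 0.212), and the 2 conditions did not overlap. SDHA (ENSECAG00000000397, chromosome 21, 58852954 to 58880935) had 301, 286 and 287 CPM untreated and 247, 277 and 195 CPM with IL-1ß, a log2 fold change of -0.30 (-0.55 to -0.04, limma adjusted p = 0.316). These conditions did not overlap either, and the lowest SDHA value was in IL-1ß replicate 3. SDHD, the membrane anchor, had 78.5, 74.1 and 70.5 CPM untreated and 74.9, 69.4 and 52.7 CPM with IL-1ß, which overlapped.

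In all, 5 members had every IL-1ß library below every untreated one, against 8.22% of all genes. Beside SDHB and SDHA they were UQCRC2, a core protein of complex III, ATP5PB, the peripheral stalk of complex V, and ATP5F1B. The catalytic subunit ATP5F1B had 1601, 1516 and 1435 CPM untreated and 1303, 1424 and 1364 CPM with IL-1ß, a log2 fold change of -0.15 (-0.37 to 0.06). At equal ribosomal protein level, 23 members were lower with IL-1ß in limma and 0 higher, against 9.39% of all genes. The covariate itself differed between these conditions, its genes having a median log2 fold change of 0.48, and 6 of the 23 were of complex I, 1 of II, 5 of III, 5 of IV and 6 of V. UQCRC1 was among them, with a log2 fold change of -0.42 (limma adjusted p = 0.00921 with this covariate), and SDHB was at -0.32 (adjusted p = 0.0497).

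The 3 OTs were each set against IL-1ß alone, to ask what each added to the stimulus, and these comparisons share the IL-1ß libraries. With MSC-CM, 0 of 70 members passed the adjusted threshold in limma, edgeR and DESeq2, as did 0.0% of all genes tested in limma. At an unadjusted p of 0.05, 1 member was higher and 1 lower, against 5.6% of all genes. The higher one, SDHD, had 75.0, 93.1 and 79.4 CPM with MSC-CM and 74.9, 69.4 and 52.7 CPM with IL-1ß, a log2 fold change of 0.33 (0.02 to 0.65, limma adjusted p = 0.705). The lower one, NDUFV3, an accessory subunit of the NADH-binding part of complex I, had a log2 fold change of -0.32 (-0.63 to -0.00). The median was -0.11 for the members and 0.16 for all genes, and 60 of the 70 members were negative. Without IL-1ß replicate 3 the medians were 0.08 and 0.05. They were -0.25 and 0.19 without MSC-CM replicate 1, and -0.04 and 0.09 without the 3 libraries that stand apart. Scaling moved them as well, to -0.28 and 0.00 with RLE size factors, -0.25 and 0.03 with TMM factors and -0.37 and 0.00 in DESeq2.

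With PRP lysate, 0 of 70 members passed in limma, edgeR and DESeq2, against 4.94% of all genes in limma, and 0 passed at an unadjusted p of 0.05, against 17.5% of all genes. The median was -0.16 for the members and 0.11 for all genes, and both signs turned without IL-1ß replicate 3, to 0.04 and -0.02. Without PRP lysate replicate 1 they were -0.34 and 0.14, and without the 3 libraries that stand apart they were -0.12 and 0.02. The medians were -0.26 and 0.02 with RLE size factors and -0.31 and 0.00 in DESeq2. With the ribosomal protein covariate that of the members was 0.03 and 1 member, UQCRC1, passed as higher, against 17.4% of all genes. The lowest log2 fold change was that of COX7A1, at -0.62 (-1.49 to 0.25), with 11.5, 3.32 and 5.84 CPM against 6.78, 8.50 and 17.3 CPM. By complex the median was -0.20 for complex I, which lay lowest with complex IV, and -0.01 for complex II.

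With ACS, 0 of 70 members passed in limma, edgeR and DESeq2, against 3.45% of all genes in limma. At an unadjusted p of 0.05, 6 members passed, all lower and all of complex I, against 20.5% of all genes in either direction. They were NDUFV3, NDUFA10, NDUFS7, NDUFA8, NDUFV1 and NDUFB8. NDUFV3 (ENSECAG00000003055, chromosome 26, 39577723 to 39588890) had 99.5, 107 and 82.8 CPM with ACS and 114, 130 and 149 CPM with IL-1ß, a log2 fold change of -0.44 (-0.75 to -0.12, limma adjusted p = 0.128). The 2 conditions did not overlap, and the IL-1ß value nearest to ACS was that of replicate 1.

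NDUFS7 (ENSECAG00000000402, chromosome 7, 762359 to 769084), an iron-sulfur subunit at the quinone site, had 74.0, 68.2 and 65.3 CPM with ACS. In the IL-1ß libraries it had 79.1, 97.2 and 188 CPM, a log2 fold change of -0.70 (-1.31 to -0.10, limma adjusted p = 0.194) in which replicate 3 carried the highest value. NDUFV1, the NADH-binding flavoprotein of complex I, had 96.7, 85.0 and 81.0 CPM with ACS and 96.9, 122 and 200 CPM with IL-1ß, a log2 fold change of -0.60 (-1.17 to -0.04). The conditions were parted by less than 1 CPM.

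The median with ACS was -0.29 for the members and 0.13 for all genes, with -0.33 for complex I, -0.25 for III, -0.24 for V and 0.03 for II. Without IL-1ß replicate 3 the median was -0.08 for the members and 0.01 for all genes, and in DESeq2 it was -0.49 and 0.00. CSF3R, the only one of 4 listed neutrophil markers with enough reads to be tested, was at 653 ± 115 CPM with ACS and 340 ± 43.7 CPM with IL-1ß (SD, n = 3, log2 fold change 0.93, limma adjusted p = 0.0143), a call that edgeR did not make, and its part in this was not tested. In 11 members all 3 ACS libraries lay below all 3 IL-1ß libraries, against 11.2% of all genes. Without IL-1ß replicate 1, NDUFS7 and NDUFV3 passed the adjusted threshold in limma, both lower, against 10.1% of all genes. With the ribosomal protein covariate the median became 0.10 and 2 members, ATP5MK and COX7A1, passed as higher, against 7.43% of all genes. The covariate itself differed between these conditions, its genes having a median log2 fold change of -0.57.

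**Figure D4:**
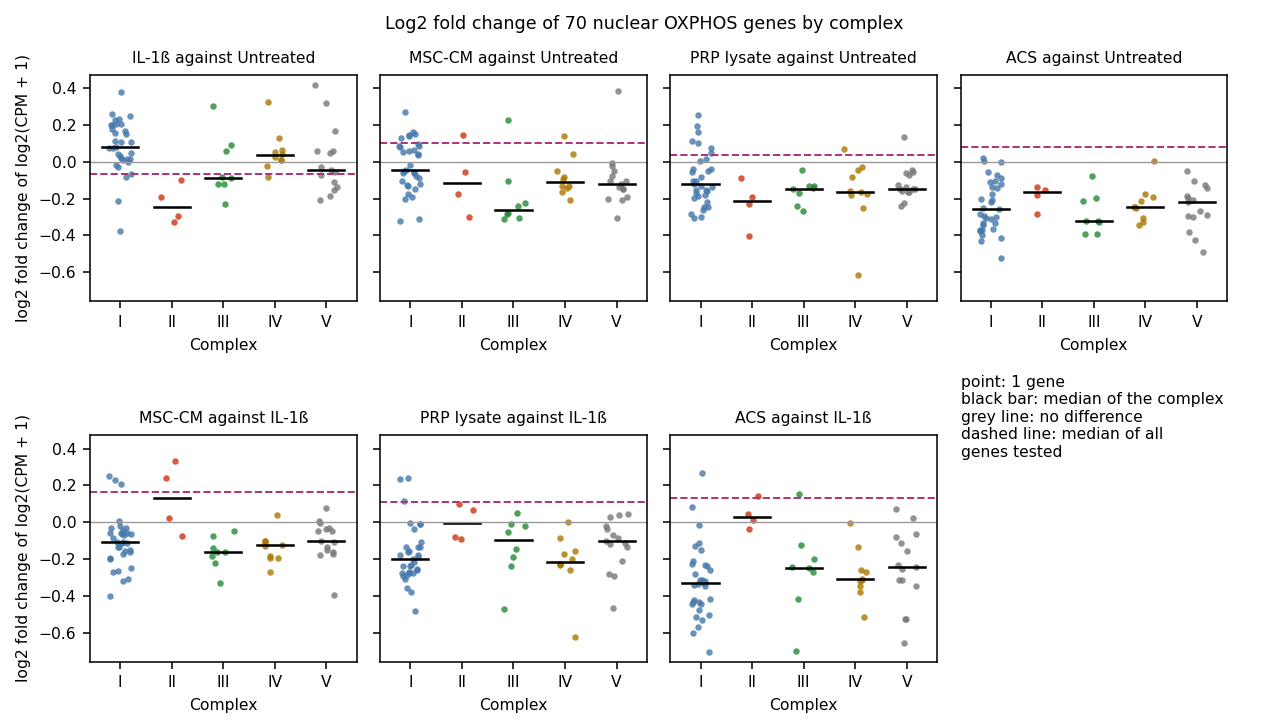
Log2 fold change of log2(CPM + 1) (vertical axis) of 70 OXPHOS genes by complex in 7 comparisons, 1 point per gene, with the median of each complex as a black bar and that of all genes tested as a dashed line. Against IL-1ß the complex II bar lies above the bars of the other complexes in each of the 3 panels, and against untreated the ACS panel has nearly all points below 0. Those 3 panels share the IL-1ß libraries. In IL-1ß replicate 3 complex II differed from the rest of the condition by -0.25 and the other complexes by 0.60 to 0.76. Medians by complex without that library are not given here. No point passed an adjusted p of 0.05.

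The OTs were then compared directly. Between PRP lysate and MSC-CM, 0 of 70 members passed in limma, edgeR and DESeq2, against 4.22% of all genes in limma, and 0 passed at an unadjusted p of 0.05, against 14.5%. The medians were -0.03 for members and -0.09 for all genes, and leaving out single libraries moved that of the members between -0.18 (without PRP lysate replicate 1) and 0.07 (without MSC-CM replicate 1). The sign also turned with RLE size factors, to 0.05, and with the ribosomal protein covariate, to 0.04, when UQCRC1, UQCRFS1 and UQCRQ passed as higher with PRP lysate, against 25.7% of all genes. Between ACS and MSC-CM, 0 members passed in limma, edgeR and DESeq2, against 1.92% of all genes, and 1 passed at an unadjusted p of 0.05, against 13.5%. This was SDHD, with 64.7, 63.7 and 68.4 CPM with ACS and 75.0, 93.1 and 79.4 CPM with MSC-CM, a log2 fold change of -0.32 (-0.63 to -0.01, limma adjusted p = 0.356) without overlap.

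All 3 ACS libraries lay below all 3 MSC-CM libraries in 19 members, against 22.2% of all genes, with medians of -0.17 and -0.04. In a fit of those 6 libraries alone ATP5MC2, ATP5F1D and UQCR11 passed as lower with ACS, against 13.2% of all genes. Without MSC-CM replicate 1 the median of the members was -0.05. With the ribosomal protein covariate it turned to 0.10, with -0.16 for all genes, and 10 members passed, 9 higher and 1 lower, against 23.2% of all genes. The ribosomal protein genes themselves had a median log2 fold change of -0.43 here. CSF3R was higher with ACS here too (log2 fold change 0.89, limma adjusted p = 0.0232), but not in edgeR, and its part was not tested. Between PRP lysate and ACS, 0 members passed in limma, edgeR and DESeq2, against 0.103% of all genes, and 0 passed at an unadjusted p of 0.05, against 5.19%. In 7 members all PRP lysate libraries were above all ACS libraries, against 6.66% of all genes, and among them were ATP5F1C, ATP5MC3 and UQCRFS1, the Rieske iron-sulfur protein of complex III. The median was 0.15 for members and -0.04 for all genes, and without PRP lysate replicate 1 they were -0.03 and 0.00. With the ribosomal protein covariate the median of the members was -0.07, and COX7A1 passed as lower with PRP lysate, against 0.748% of all genes.

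Comparisons of each OT with untreated macrophages were added after the values were seen, and they share the untreated libraries with one another and with the IL-1ß comparison. Each sets IL-1ß plus an OT against neither. With MSC-CM, 0 of 70 members passed in limma and edgeR, against 1.92% of all genes in limma, and 2 of 74 passed in DESeq2, UQCRC2 and SDHB, against 3.53% of all genes there. At an unadjusted p of 0.05, 3 members passed, SDHB, NDUFA9 and UQCRC2, all lower, against 15.7% of all genes, and 5 members had no overlap in the lower direction, against 8.93%. The medians were -0.09 for members and 0.10 for all genes, and that of the members ran from -0.21 without MSC-CM replicate 1 to -0.00 without untreated replicate 1. With RLE size factors the medians were -0.21 and -0.01.

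With PRP lysate, 0 of 70 passed in limma and edgeR, against 2.59% of all genes in limma, and 1 of 74, SDHB, passed in DESeq2, against 3.48% of all genes there. It also passed in limma with no filter on low values, against 1.61% of all genes, and with a mean of at least 5 CPM, against 2.92%. At an unadjusted p of 0.05, SDHB and ATP5F1B passed, both lower, against 12.8% of all genes, and 7 members had no overlap in the lower direction, against 8.41%. SDHB had 165, 173 and 176 CPM with PRP lysate, against 247, 220 and 214 CPM untreated, a log2 fold change of -0.40 (-0.63 to -0.18, limma adjusted p = 0.0598). The medians were -0.14 for members and 0.04 for all genes, and that of the members ran from -0.27 without PRP lysate replicate 1 to -0.03 without replicate 3.

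With ACS, 0 of 70 passed in limma, edgeR and DESeq2, against 0.473% of all genes in limma, and 8 passed at an unadjusted p of 0.05, all lower, against 7.65% of all genes. They were NDUFV3, NDUFA9, SDHB, NDUFA10, ATP5F1C, ATP5MC3, CYC1 and ATP5F1B, members of complexes I, II, III and V. All 3 ACS libraries lay below all 3 untreated libraries in 30 of 70 members, against 10.0% of all genes, and 67 of 70 members were negative. The medians were -0.25 for members and 0.08 for all genes, and that of the members was -0.16 without untreated replicate 1. In a fit of those 6 libraries alone ATP5F1D and NDUFS7 passed as lower, against 2.88% of all genes. CSF3R was at 346 ± 37.0 CPM untreated (SD, n = 3), below its level with ACS (log2 fold change 0.90, limma adjusted p = 0.0482), a call that edgeR did not make, and its part in this was not tested.

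CYC1, cytochrome c1 of complex III, had 288, 302 and 270 CPM with ACS and 398, 340 and 394 CPM untreated, a log2 fold change of -0.39 (-0.77 to -0.02, limma adjusted p = 0.625). The conditions did not overlap. NDUFA9, an accessory subunit, had 76.3, 77.0 and 70.8 CPM against 108, 85.6 and 97.0 CPM, a log2 fold change of -0.36 (-0.64 to -0.09, limma adjusted p = 0.389), again without overlap. ATP5F1B had 1338, 1311 and 1259 CPM with ACS, below its 3 untreated values given above, with a log2 fold change of -0.22 (-0.43 to -0.01).

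**Figure D5:**
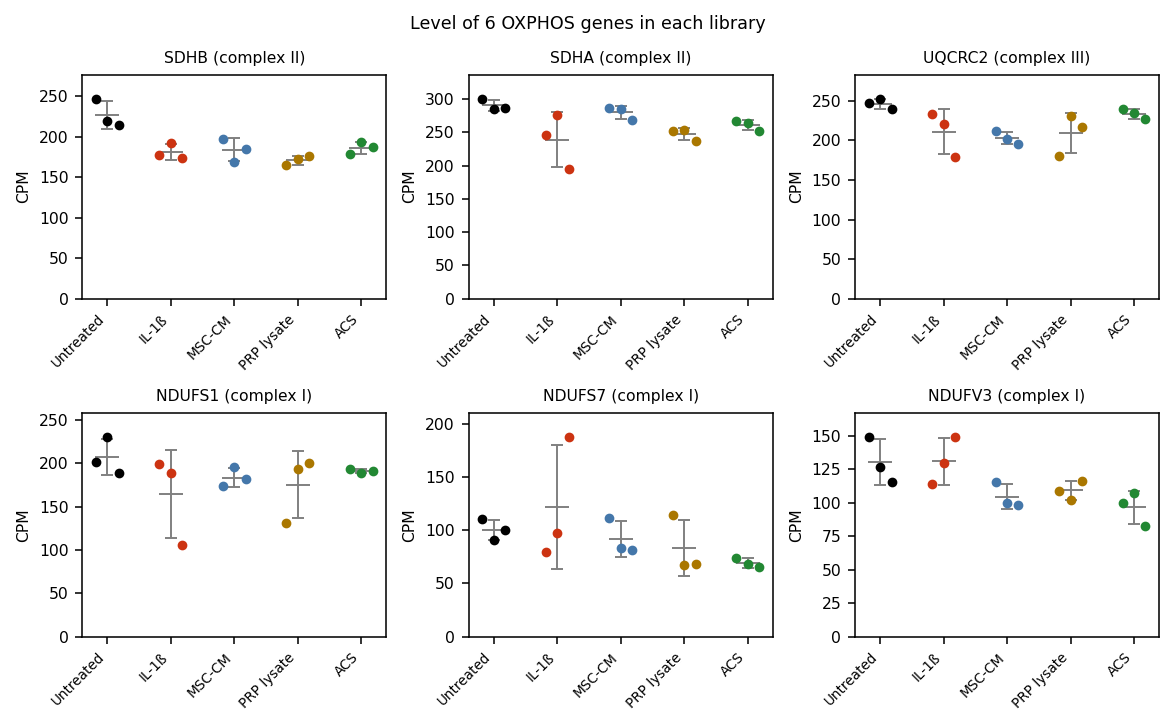
Level (CPM, vertical axis from 0) of SDHB, SDHA, UQCRC2, NDUFS1, NDUFS7 and NDUFV3 in each library, points being libraries in order of replicate, with the mean and SD of each condition (n = 3) in grey. The untreated SDHB and UQCRC2 points lie above all 12 points of the other conditions, and NDUFS1 and NDUFS7 part in opposite directions in IL-1ß replicate 3.

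SDHB and UQCRC2 were the 2 members for which all 12 libraries with IL-1ß, whatever the OT, lay below all 3 untreated ones, against 0.662% of all genes (77 of 11628). No member lay above in all 12, against 1.22% of all genes (142 of 11628). UQCRC2 (ENSECAG00000021501, chromosome 13, 27403862 to 27426737) had 247, 253 and 240 CPM untreated and 233, 221 and 179 CPM with IL-1ß. MSC-CM libraries held 211, 202 and 196 CPM, PRP lysate libraries 181, 230 and 217 CPM and ACS libraries 240, 234 and 227 CPM, whose highest value was within 1 CPM of the lowest untreated one. SDHB had 198, 170 and 185 CPM with MSC-CM and 179, 194 and 187 CPM with ACS.

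The OT conditions were not told apart by SDHB, whose 95% intervals spanned 0 in each comparison among them (-0.32 to 0.12 for PRP lysate against MSC-CM, -0.20 to 0.24 for ACS against MSC-CM and -0.35 to 0.10 for PRP lysate against ACS), although all 3 PRP lysate values lay below all 3 ACS values. The 2 core proteins of complex III differed from each other across libraries. UQCRC1 had 369, 444 and 621 CPM with IL-1ß, highest in replicate 3, where UQCRC2 was lowest.

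The counts for the OTs against untreated were higher when the libraries that stand apart were left out, while that for IL-1ß against untreated stayed at 0 of 70 in limma (against 3.53% of all genes). Without the 3 libraries, 7 members passed in limma for MSC-CM (against 17.1% of all genes), 5 for PRP lysate (against 7.07%) and 2 for ACS (against 4.18%), all lower. With MSC-CM they were UQCRC1, ATP5PO, SDHB, UQCRC2, UQCRFS1, CYC1 and NDUFA9, so 4 of the 7 were of complex III. With PRP lysate they were NDUFS7, NDUFS3, COX7A1, COX6A1 and SDHB, and with ACS they were NDUFS7 and ATP5F1D, the delta subunit of the ATP synthase. NDUFS7 was at -0.55 with PRP lysate (limma adjusted p = 0.0179) and at -0.52 with ACS (limma adjusted p = 0.0205) in these fits.

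At equal ribosomal protein level, 42 members passed for MSC-CM (against 37.5% of all genes), 25 for PRP lysate (against 14.5%) and 6 for ACS (against 4.26%), all lower. The 6 with ACS were NDUFS7, CYC1, ATP5F1D, NDUFA9, NDUFS8 and UQCRFS1. The medians with this covariate were -0.35 with MSC-CM for the members and 0.21 for all genes. The ribosomal protein genes themselves had median log2 fold changes of 0.34, 0.20 and -0.09 in these 3 comparisons.

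Genes that build or feed the complexes were counted in the same fits, from lists chosen with earlier results of these data known. Of 45 assembly factors tested, 1 passed in limma, with PRP lysate against IL-1ß, where 4.94% of all genes did. The other 9 of the 10 comparisons had none. At an unadjusted p of 0.05, 0 to 8 passed (5.19% to 20.5% of all genes). The 8 were with ACS against IL-1ß, where 20.5% of all genes passed. At most 3 were called by DESeq2 and 1 by edgeR. The gene called in limma was NDUFAF4, a complex I assembly factor named after its value was seen. It was at 16.5 ± 1.46 CPM with PRP lysate and 9.63 ± 3.00 CPM with IL-1ß (SD, n = 3), a log2 fold change of 0.76 (SE 0.20, limma adjusted p = 0.0446). Of 19 TCA cycle genes, 1 passed in limma in the same comparison, a share near the 4.94% of all genes, and 0 did in edgeR. IDH2, which makes 2-oxoglutarate in mitochondria and was also named after its value was seen, was lower with PRP lysate, at 297 ± 69.5 against 458 ± 55.0 CPM (log2 fold change -0.64, SE 0.15, limma adjusted p = 0.0217).

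Among 14 regulators of mitochondrial biogenesis, PPARGC1B, a coactivator that raises respiratory gene transcription, passed with ACS against IL-1ß, where 3.45% of all genes did. It was at 108 ± 9.59 CPM with ACS and 55.3 ± 13.9 CPM with IL-1ß, a log2 fold change of 0.98 (SE 0.22, limma adjusted p = 0.0292), while the median of the OXPHOS members in that comparison was -0.29. None of the 11 genes for cytochrome c and inner membrane carriers passed in limma or edgeR in the 10 comparisons. At an unadjusted p of 0.05, 0 to 3 did (5.19% to 20.5% of all genes), and DESeq2 called at most 1. None of 71 mitochondrial ribosomal protein genes passed in limma or edgeR, with 1 to 5 at an unadjusted p of 0.05 (5.19% to 20.5% of all genes) and at most 1 by DESeq2. Their medians ran from -0.20 with ACS against IL-1ß to 0.20 with PRP lysate against ACS. Genes of the mitochondrial genome were not analysed here.

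Some markers of the cells in the cultures differed between conditions. CD163, a scavenger receptor of macrophages, was at 11.4 ± 3.48 CPM with PRP lysate, 64.6 ± 25.0 CPM with ACS and 563 ± 173 CPM with IL-1ß (SD, n = 3), a log2 fold change of -5.50 for PRP lysate (limma adjusted p = 9.04e-06) and -3.12 for ACS (limma adjusted p = 0.00149) against IL-1ß. Of 10 macrophage markers, 4 were lower with PRP lysate (CD163, AIF1, C1QC and MARCO) and 2 with ACS (CD163 and AIF1) against IL-1ß in limma, where 4.94% and 3.45% of all genes passed. With PRP lysate, 3 were lower than with MSC-CM (against 4.22% of all genes) and 4 than untreated (against 2.59%), where edgeR called 3. CD163 alone was lower with PRP lysate than with ACS (against 0.103%), and it was also lower with ACS than with MSC-CM (against 1.92%). The macrophage markers summed to 2038 to 4234 CPM with PRP lysate, 3652 to 4906 CPM with ACS and 3443 to 6414 CPM with IL-1ß, so these sums overlapped.

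Of 5 NK markers, GZMA, a granzyme of cytotoxic lymphocytes, was higher with PRP lysate than with IL-1ß (log2 fold change 0.91, limma adjusted p = 0.0374), MSC-CM (0.98, adjusted p = 0.0282) and untreated (1.18, adjusted p = 0.0155), and edgeR made none of these calls. The NK sums with PRP lysate, 360 to 807 CPM, lay above those of untreated (200 to 305 CPM) and MSC-CM (291 to 353 CPM). Of 6 T cell markers, CD3D was higher with MSC-CM than untreated in limma (adjusted p = 0.0397, against 1.92% of all genes) but was not called in edgeR. In the other 9 comparisons 0 passed in limma, edgeR and DESeq2, with 0 to 4 at an unadjusted p of 0.05 (5.19% to 20.5% of all genes). The T cell sums with MSC-CM, 1066 to 1130 CPM, lay above those of untreated (557 to 799 CPM) and ACS (670 to 830 CPM), while those of IL-1ß (772 to 1431 CPM) overlapped untreated.

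The chemokine PPBP, of the platelet list, was lowest in untreated macrophages, at 1.97 ± 0.990 CPM, and highest with PRP lysate, at 27.2 ± 14.8 CPM (SD, n = 3). Between them lay MSC-CM at 4.97 ± 0.720 CPM, IL-1ß at 11.5 ± 0.592 CPM and ACS at 11.6 ± 4.42 CPM. Against untreated it was higher with PRP lysate (log2 fold change 3.11, limma adjusted p = 0.00109), IL-1ß (2.12, adjusted p = 0.0471) and ACS (2.07, adjusted p = 0.0433, not called in edgeR), and PRP lysate was above MSC-CM (2.06, adjusted p = 0.0103). The platelet sums of untreated libraries, 3.31 to 5.17 CPM, lay below those of every other condition. The neutrophil sums were 530 to 759 CPM with ACS and 485 to 546 CPM with PRP lysate, above the other conditions, which reached at most 431 CPM. Only CSF3R of the 4 listed neutrophil markers had enough reads to be tested. It was at 653 ± 115 CPM with ACS, so these sums mostly show the level of 1 gene. The part of these markers in the levels of the OXPHOS genes was not tested.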

How the data were processed

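The authors trimmed reads at Phred 20, removed adapters with cutadapt, aligned to EquCab3.0 with STAR 2.7.3 and counted genes with HTSeq in Partek. The deposited values are CPM per gene and library, and the strand setting is not given in the sources used here. Of the values, 99.7% were whole multiples of 1 read within 0.1 read, so reads could be recovered. All 15 columns matched a sample. The sources differ on whether a further day of culture came before RNA collection.

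Here the 11628 genes averaging 1 CPM or more were fitted as log2(CPM + 1) in limma 3.58.1 (R 4.3.3) with an intensity trend, 1 model of 5 conditions and Benjamini-Hochberg adjustment over all genes within a comparison. A call was an adjusted p of at most 0.05. The study's rule also asks for a 2-fold change, by which 0 members and 0 to 359 of all genes passed in the 10 comparisons. Intervals are 95% limma intervals. Log2 fold changes are on the log2(CPM + 1) scale, which understates changes of low genes. The fits were checked on simulated data. These held no shift of whole libraries like the one described above, so the check does not cover it.

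Alternatives were edgeR 4.0.16 and DESeq2 1.42.0 on recovered reads, other scalings, a pseudocount of 0.1, no filter, a mean of at least 5 CPM, only the 2 groups compared, a replicate block, a ribosomal protein covariate, removal of the gene span trend, and each library left out in turn. Leaving out 3 libraries together, a blocked fit of PRP lysate and MSC-CM alone and the OT comparisons with untreated were added after the data were seen. The members and lists were chosen with earlier results of these data known. The values of 1 member that the naming rule covers are not reported here. Named were the members with most and fewest reads per complex, core catalytic subunits, isoform pairs and members past the threshold. Others, such as those past an unadjusted p, were named after their values were seen. Same-numbered PRP lysate and MSC-CM libraries deviated together (correlations of deviations 0.255 to 0.635), while other pairs of conditions ran from -0.775 to 0.59. Whether equal numbers stand for the same donor horse is not given in the sources used here, so the replicate block rests on an assumption. Figures were drawn with matplotlib in Python.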

Additional observations from a re-analysis of the deposited data

How the results depend on the processing

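No member was called in any of the 10 comparisons in the fit reported, and 168 of the recounts under alternatives also gave 0, while 19 did not. With the ribosomal protein covariate, counts became 23 lower for IL-1ß, 42 for MSC-CM, 25 for PRP lysate and 6 for ACS against untreated. They became 1 higher for PRP lysate (17.4% of all genes) and 2 higher for ACS (7.43%) against IL-1ß, 3 higher for PRP lysate against MSC-CM (25.7%), 10 (9 higher, 1 lower) for ACS against MSC-CM (23.2%) and 1 lower for PRP lysate against ACS (0.748%). Medians with this covariate became 0.10 for ACS against IL-1ß, 0.10 for ACS against MSC-CM and -0.35 for MSC-CM against untreated. The ribosomal protein genes themselves had medians of -0.28 for PRP lysate against IL-1ß, -0.14 for PRP lysate against MSC-CM and 0.30 for PRP lysate against ACS. With only the 2 groups fitted, 3 were lower for ACS against MSC-CM and 2 (ATP5F1D and NDUFS7, against 2.88% of all genes) for ACS against untreated. DESeq2 called 2 for MSC-CM (3.53% of all genes) and 1 for PRP lysate (3.48%) against untreated. SDHB was the 1 member called for PRP lysate against untreated with no filter (1.61% of all genes) and with a mean of at least 5 CPM (2.92%). Without the 3 libraries that stand apart, 7, 5 and 2 were lower for MSC-CM, PRP lysate and ACS against untreated. Leaving out 1 library at a time gave 0 to 2 for ACS against IL-1ß, the 2 coming without IL-1ß replicate 1, and 0 elsewhere. The cause of these differences was not tested.

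The median of the members kept its sign under every alternative only for the OTs against untreated, at -0.34 to -0.16 for ACS, -0.27 to -0.03 for PRP lysate and -0.35 to -0.00 for MSC-CM. It took both signs elsewhere, as at -0.31 to 0.19 for IL-1ß against untreated and -0.49 to 0.10 for ACS against IL-1ß. Scaling by RLE size factors moved the median of all genes from 0.16 to 0.00 for MSC-CM against IL-1ß and that of the members from -0.11 to -0.28. With the gene span trend removed, the members' median went from 0.03 to -0.01 for IL-1ß against untreated. It went from -0.11 to -0.20 for MSC-CM, -0.16 to -0.19 for PRP lysate and -0.29 to -0.26 for ACS against IL-1ß. Among OTs it went from -0.03 to 0.02 (PRP lysate against MSC-CM), -0.17 to -0.06 (ACS against MSC-CM) and 0.15 to 0.07 (PRP lysate against ACS). With the replicate block, 0 members passed in the 6 comparisons that do not hold ACS, but calls over all genes fell too, to 0.0% to 1.86% from 0.0% to 4.94% without it. The blocked fit of PRP lysate and MSC-CM alone called 0 members, against 5.56% of all genes. ACS had no replicate block. With 3 libraries a group, member intervals of about 0.49 limit what could be seen.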
